A study of Mus musculus with 6 samples.

Results

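Passage 54 of a melanocyte line is described here against passages 47 and 56 of the same line. Melan-a is an immortalised, pigmented mouse melanocyte line of C57BL/6 origin, labelled female, and it was grown in serum and the phorbol ester TPA (200 nM). The cells had been transfected with an siRNA against Dicer (siDicer) or with a control siRNA (siScr), and RNA was read on Affymetrix Clariom D mouse arrays from 100 ng of total RNA per array, with an RNA integrity number of 10.0 for each. The titles give 48 h after transfection, while the treatment text gives a medium change after 6 h and lysis 24 h later. Each passage has 1 siDicer array and 1 siScr array, so passage 54 holds 2 of the 6 arrays and passages 47 and 56 hold the other 4. Replicate numbers 1, 2 and 3 stand for passages 47, 54 and 56, so passage, replicate number and whatever else went with a replicate cannot be told apart. The 2 arrays of each passage share 1 culture passage, and any spread between arrays may be partly technical. Passage 54 lies between the other passages in order, and genes at which it stands apart therefore do not follow passage number.

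The passage 54 contrast was selected on the measured values of these same arrays. Its differences are given as a description. Where a gene is said to be called for it, this marks how the linear model sorts the values by which the contrast was chosen; it is no independent test and supports nothing. The tests in what follows are of contrasts that the choice did not use, passage 56 against 47 and the interaction of passage 54 with siRNA. A difference is the mean log2 signal of the 2 passage 54 arrays minus that of the other 4, with siRNA as a block, so that log2 1 is a doubling. Its standard error depends on how alike passages 47 and 56 are and on how well siDicer and siScr cells agree. It does not measure the spread between separate cultures.

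Cells sense foreign or misplaced nucleic acid through receptors such as the cytosolic RNA sensors Ifih1 (MDA5) and Ddx58 (RIG-I) and the DNA-binding proteins of the Ifi200 family. Signalling from these receptors induces type I interferon, which acts through the JAK kinases and STAT factors on a shared DNA element, the interferon-stimulated response element, in front of its target genes. Those targets include the sensors themselves and the guanylate-binding GTPases. Melanocytes are also known to make melanin in lysosome-related organelles, the melanosomes, under the control of factors such as Pax3 and Lef1.

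The letters GAAANNGAAA, the core of that response element, were searched on both strands of RefSeq promoter windows (GRCm38.p6, 250 bases before to 50 after a gene's start). The stretches in which a match stood are shown for 10 genes with the higher signal, so that they can be compared base by base. They are members of the interferon lists, apart from Clca3a1, which is on none of those lists. Each runs 5′ to 3′ on the strand on which the match reads GAAANNGAAA, and the strand named is that strand. Only the first match found is in capitals, with up to 20 bases on each side. The Gbp3 stretch also holds a further match, which overlaps the one in capitals and is left partly in lower case.

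Gbp2, chr3:142620584-142620633, minus strand: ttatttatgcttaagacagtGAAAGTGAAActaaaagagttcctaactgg
Gbp3, chr3:142559985-142560034, minus strand: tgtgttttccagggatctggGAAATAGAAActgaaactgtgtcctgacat
Gbp7, chr3:142530263-142530312, minus strand: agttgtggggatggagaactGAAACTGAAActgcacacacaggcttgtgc
Ifih1, chr2:62646206-62646243, minus strand: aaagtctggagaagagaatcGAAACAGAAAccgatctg
Ddx58, chr4:40239794-40239843, plus strand: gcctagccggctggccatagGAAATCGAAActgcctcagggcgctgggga
Ifi206, chr1:173491329-173491378, minus strand: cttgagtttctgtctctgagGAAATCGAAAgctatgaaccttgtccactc
Ifi207, chr1:173741821-173741870, minus strand: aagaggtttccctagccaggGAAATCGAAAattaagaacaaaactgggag
Mndal, chr1:173880194-173880243, minus strand: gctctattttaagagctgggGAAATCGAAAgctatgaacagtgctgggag
Ifi211, chr1:173913054-173913103, minus strand: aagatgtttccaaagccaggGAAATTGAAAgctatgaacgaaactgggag
Clca3a1, chr3:144760968-144761017, plus strand: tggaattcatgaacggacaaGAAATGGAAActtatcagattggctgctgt

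The same letters were found in 126 of the 3385 kept genes that have a promoter window, or 3.72%. On the 3 interferon lists described here, 12 of 27 genes with a window held them (44.4%), among them the 3 guanylate-binding genes, Ifih1, Ddx58 and 4 of the Ifi200 family. Ifi206, which holds the letters, and Fcgr1, which does not, are among the 27 but were kept only through their passage 54 signal. The guanylate-binding genes and the Ifi200 genes are near copies within each family, so their matches may not be independent. The windows of Sp100, Sp110, Samhd1, Adar and Aim2 held no match, which says only that these letters are not in these windows. A related element, TTCNNNGAA, which STAT dimers can bind, was in 7.15% of genes with a window and in 4 of the 27, Adar, Fcgr1, Gbp7 and Samhd1. These matches are descriptions of sequence and not measured binding.

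The deposited table held 16383 transcript clusters, whose identifiers run over chromosomes 1 to 4, and genes of other chromosomes, Dicer1 among them, were not analysed here. Of 7619 genes with 1 named cluster, 5333 had a mean signal at or above the 30th percentile (log2 4.15) and were kept. Array medians lay between log2 4.63 and 4.68, and arrays correlated in pairs at 0.9934 to 0.997 over all clusters. Tyrp1, the melanosomal enzyme that marks pigmented cells, is a pigment marker of the label and was bright at log2 12.68 to 12.96 on the 6 arrays. Markers of other cell types were mixed. Of the measured leukocyte markers 9 of 12 passed the filter on dim genes, up to Cd247 at log2 5.28 and C1qa at 5.50, and Ptprc was dim at 2.84. Of the keratinocyte markers 3 of 7 passed, with Flg at 6.90, and Ivl was dim at 3.93. Of the fibroblast markers 5 of 7 passed, with Ddr2 at 6.68 and Col3a1 at 6.32, and Fap was dim at 4.06.

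The largest differences of passage 54 were upward. Both of its arrays lay above the other 4 in 821 genes, which is 15.4% of those kept, and below them in 576 (10.8%). The linear model (limma, adjusted p under 0.05) called 69 genes, or 1.29%, of which 53 were higher (0.994%) and 16 lower (0.300%). These counts describe a contrast that was chosen for them, and without adjustment 933 genes were under 0.05. The median difference over all kept genes was 0.01. Differences past log2 0.5 were found in 53 genes upward and 23 downward, and 75 of those 76 had the same sign in siDicer and in siScr cells. The 76 were picked on a difference that averages the siDicer and siScr cells, which makes the same sign likely. The count of 75 therefore supports nothing, and the share over all kept genes was not counted. With every array centred on its median the arrays of 546 genes lay above and of 808 below, so the balance of small differences turns with the scaling, from 58.8% higher to 40.3%. After that centring 55 genes were called, 39 higher and 16 lower, and all 55 were among the 69.

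The number called rested on few arrays. It was 0 without the siDicer array of passage 54 and 0 without its siScr array, when 1 array is left to stand for the passage. It was 1 without the siScr array of passage 47, 3 without the siScr array of passage 56, 39 without the siDicer array of passage 47 and 221 (102 higher, 119 lower) without the siDicer array of passage 56. Against passage 56 alone the count was 30, with 29 higher and 1 lower, and against passage 47 alone it was 390, with 177 higher and 213 lower. Weighting the arrays by their quality raised it to 288 (146 higher, 142 lower), and leaving out the siRNA block lowered it to 41 (36 higher, 5 lower). The excess of higher over lower calls was therefore not found against passage 47 alone or without the siDicer array of passage 56, and was slight with array weights.

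**Figure D1:**
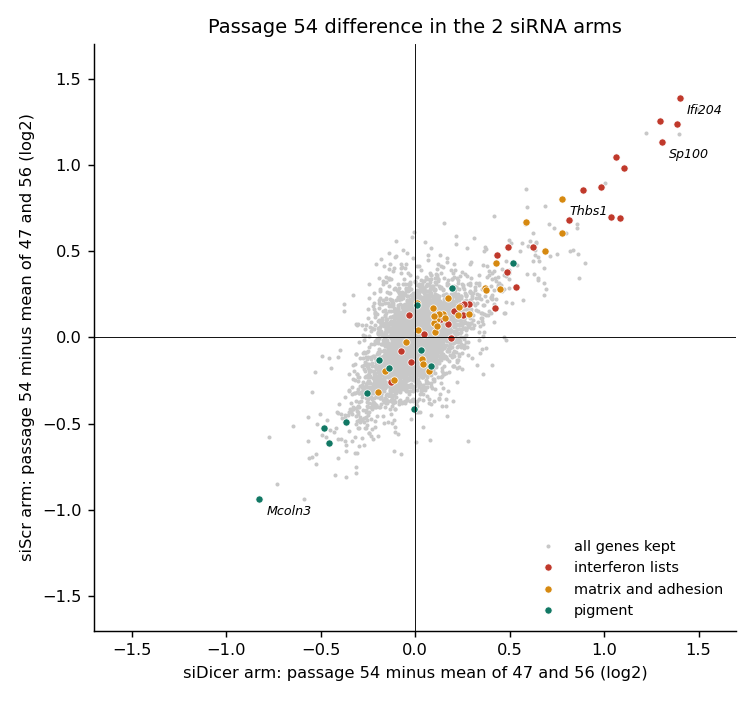
Each point is a gene: its difference between passage 54 and the mean of passages 47 and 56 in siDicer cells (x, log2) and in siScr cells (y, log2), for 5333 kept genes in grey and the members of 3 groups of lists in colour. Both axes end at 1.7 and leave out 1 gene. Ifi204 lies farthest along the upper right among the interferon genes, at 1.40 and 1.39, while Ikbke, Tank and Ifnlr1 are below 0 in both arms, and Mcoln3 lies at the lower left.

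The 2 siRNA arms use separate arrays, and the passage 54 difference correlated at r = 0.62 between them over the 5333 genes, while passage 56 minus 47 correlated at r = 0.11. These are descriptions across genes, which are not independent replicates, and genes within an arm share arrays and their processing. The passage 54 value in an arm averages 2 reference arrays, and the value for 56 minus 47 sets 1 array against 1.

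Sensors of nucleic acid and guanylate-binding genes were the lists with the highest medians. Of 21 listed sensor genes 14 had a value and 11 were kept. The filter on dim genes uses the mean of all 6 arrays, and Ifi206 passed it, at a mean of log2 4.25, only through passage 54, since its mean over the other 4 arrays was 3.96. Without Ifi206, 10 genes remain. In these 10 both passage 54 arrays lay above the other 4, by a median of 0.90, and 4 were called (Ifih1, Ddx58, Zbp1, Samhd1). Over the 5295 kept genes that pass the filter on passages 47 and 56 as well, a limit chosen after seeing the data, the median was 0.01, 15.2% lay above in this way and 52 were called as higher. Ifi208 lay just outside the filter at a mean of 4.09. The other listed genes with a value, Ifi213 and Ifi209, were dim as well, at 3.97 and 2.89.

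Ifi204, an interferon-inducible DNA-binding protein of the Ifi200 family, had the largest difference of the named markers. Its log2 signal in siDicer cells was 8.57 at passage 47, 10.40 at passage 54 and 9.44 at passage 56, and in siScr cells it was 8.76, 10.41 and 9.30. The passage 54 arrays were the highest of the 6 in both arms and passage 56 stood between the others. The difference was 1.39 with a standard error of 0.25, or 2.63-fold, and it was 1.75 against passage 47 and 1.04 against passage 56. Despite the size of its difference, Ifi204 was not called.

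The neighbouring family members had the same order. Ifi207 was at 6.73, 8.79 and 8.09 in siDicer cells and at 7.06, 8.83 and 8.14 in siScr cells, at passages 47, 54 and 56 in that order. Its difference was 1.31, and it was 1.92 against passage 47 and 0.70 against passage 56. Ifi211 differed by 1.27, Mndal by 1.05 and Ifi206, the dimmest of them, by 0.87. Aim2, the DNA sensor that starts the inflammasome, differed by 0.46 and at passage 56 came close to passage 54, at 5.10 against 5.25 in siDicer cells. Ifi206 was called, and Ifi207, Ifi211, Mndal and Aim2 were not. These genes are close copies of one another, so their probes may read more than 1 of them and their separate values are uncertain.

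Ifih1, which senses long double-stranded RNA, was at log2 6.54, 7.87 and 6.98 in siDicer cells and at 6.81, 7.85 and 6.93 in siScr cells at passages 47, 54 and 56. The passage 54 arrays were the highest in both arms, and passage 56 was above passage 47 in both, by 0.28 on average. The difference was 1.04 with a standard error of 0.12, or 2.06-fold. Ddx58, which senses RNA with a 5′ triphosphate, differed by 0.57, from 8.93 and 8.80 at passage 54 against 8.21 to 8.39 elsewhere.

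The remaining sensor genes differed by less. Zbp1, which senses Z-form nucleic acid, was at 5.89 and 5.79 at passage 54 and at 5.02 to 5.18 on the other arrays, a difference of 0.75. Samhd1, which breaks down nucleotides, differed by 0.43, and Adar, which edits double-stranded RNA, by 0.24. In both of these the arrays of passage 54 were the highest, by a narrow margin in Samhd1, whose lower passage 54 array was at 9.09 and whose next array was at 8.89.

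**Figure D2:**
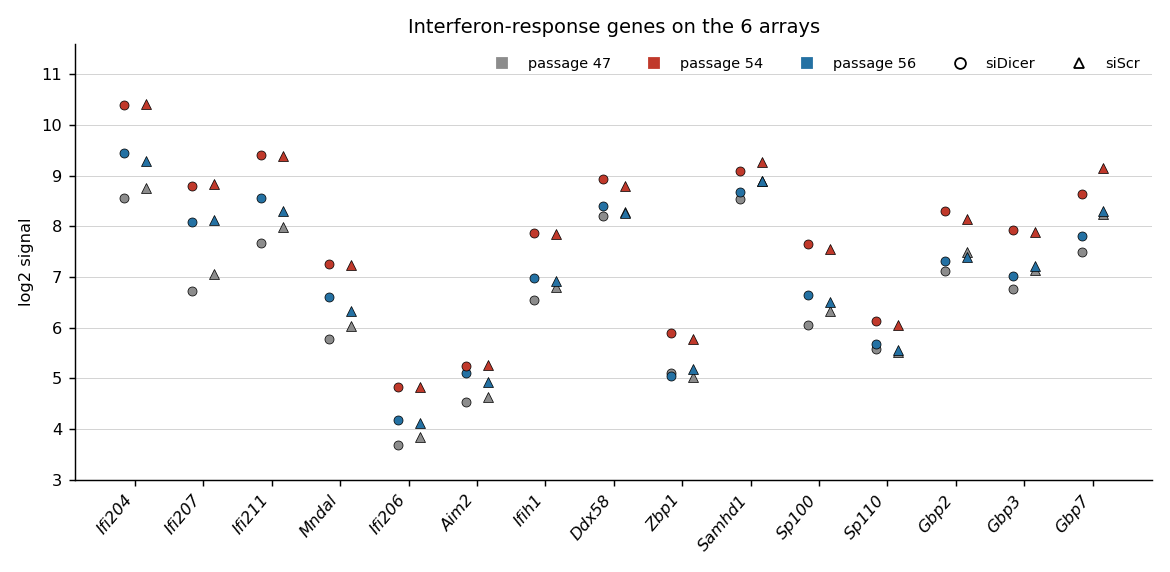
Log2 signal (y) of 15 interferon-response genes (x) on each of the 6 arrays, with colour for the passage and shape for the siRNA. In the 15 genes shown both passage 54 arrays are the highest of the 6, and in Ifi204, Ifi207, Ifi211, Mndal and Ifi206 passage 56 lies between 47 and 54.

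Guanylate-binding proteins are interferon-induced GTPases that attack membranes of pathogens. Of 5 listed, 3 had a value, all kept and all called, against 1.29% of all kept genes, with a median difference of 0.89. Gbp2 was at log2 7.12, 8.30 and 7.33 in siDicer cells and at 7.50, 8.15 and 7.41 in siScr cells at passages 47, 54 and 56. Gbp3 was at 6.77, 7.93 and 7.02 and at 7.14, 7.88 and 7.22. Gbp7 was at 7.50, 8.64 and 7.81 and at 8.25, 9.15 and 8.30. In each of the 3 both passage 54 arrays lay above the other 4, as in 15.4% of all kept genes. The differences were 0.89, 0.87 and 0.93 with standard errors of 0.11, 0.10 and 0.096. Passage 56 minus 47 was 0.06, 0.17 and 0.18 in the same genes. These genes are near copies, so cross-reading of probes is possible here too.

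Genes of interferon signalling and its effectors were mixed. Of 24 listed 20 had a value and 16 were kept, with a median difference of 0.15, and 9 (56.2%, against 15.4% of all kept genes) had both passage 54 arrays above the others and 1, the kinase Ikbke, below (10.8% of all). The model called 2 of the 16, Sp100 and Sp110, against 1.29% of all kept genes. Sp100, a chromatin-binding protein of nuclear bodies, was at log2 6.06, 7.66 and 6.64 in siDicer cells and at 6.33, 7.55 and 6.51 in siScr cells, a difference of 1.22. Sp110, a relative, differed by 0.51, and Nmi, a partner of STAT factors, by 0.41. Tor3a (0.29), Tdrd7 (0.23), the cytokine receptor chain Il15ra (0.21), Ogfr (0.19), the nuclear helicase Helz2 (0.18) and Jak1 (0.12) also lay above without overlap. B2m, the light chain of MHC class I, differed by 0.13 with overlapping arrays, Znfx1 by 0.09 and Mov10 by 0.03. Fcgr1, Tank and Ifnlr1 differed by 0.05, -0.08 and -0.08. Fcgr1 passed the filter on dim genes only through passage 54, and without it 9 of 15 (60%) lay above, against 15.2% of the genes filtered in the same way. The gene of interferon beta itself, Ifnb1, was dim at a mean of log2 3.34, and so were Tnfsf10, Ifi44l and Stat4, at 3.28, 3.10 and 2.94. Isg15, Ifi44 and Sp140 were not analysed here.

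Csprs, which is on none of the interferon lists, had the largest difference of the genes the rule names, 1.41. Its signal was 6.53, 8.74 and 7.96 in siDicer cells and 6.96, 8.70 and 7.79 in siScr cells. It was higher by 1.97 against passage 47 and by 0.84 against passage 56, and it was not called. Probes for Csprs and Sp100 may read related sequence, so the 2 values may not be independent.

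Many of the interferon genes lie in clusters, and flanking genes with a value differed by less. In RefSeq order on chromosome 1 the kept members of the Ifi cluster were Aim2 (0.46), Ifi206 (0.87), Ifi207 (1.31), Ifi204 (1.39), Mndal (1.05) and Ifi211 (1.27). Cadm3, the next gene with a value on 1 side, differed by 0.07 and Ackr1 beyond it by 0.14, and the odorant receptor Olfr433 on the other side by -0.09. On chromosome 3 Gbp7, Gbp3 and Gbp2 were followed by Kyat3 (-0.20), Gtf2b (-0.02) and Pkn2 (0.13). On chromosome 1 Sp110 and Sp100 were followed by A630001G21Rik (0.12), Cab39 (-0.01) and Itm2c (-0.02). Only the order is taken from RefSeq, since the build of the array annotation is not known here.

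**Figure D3:**
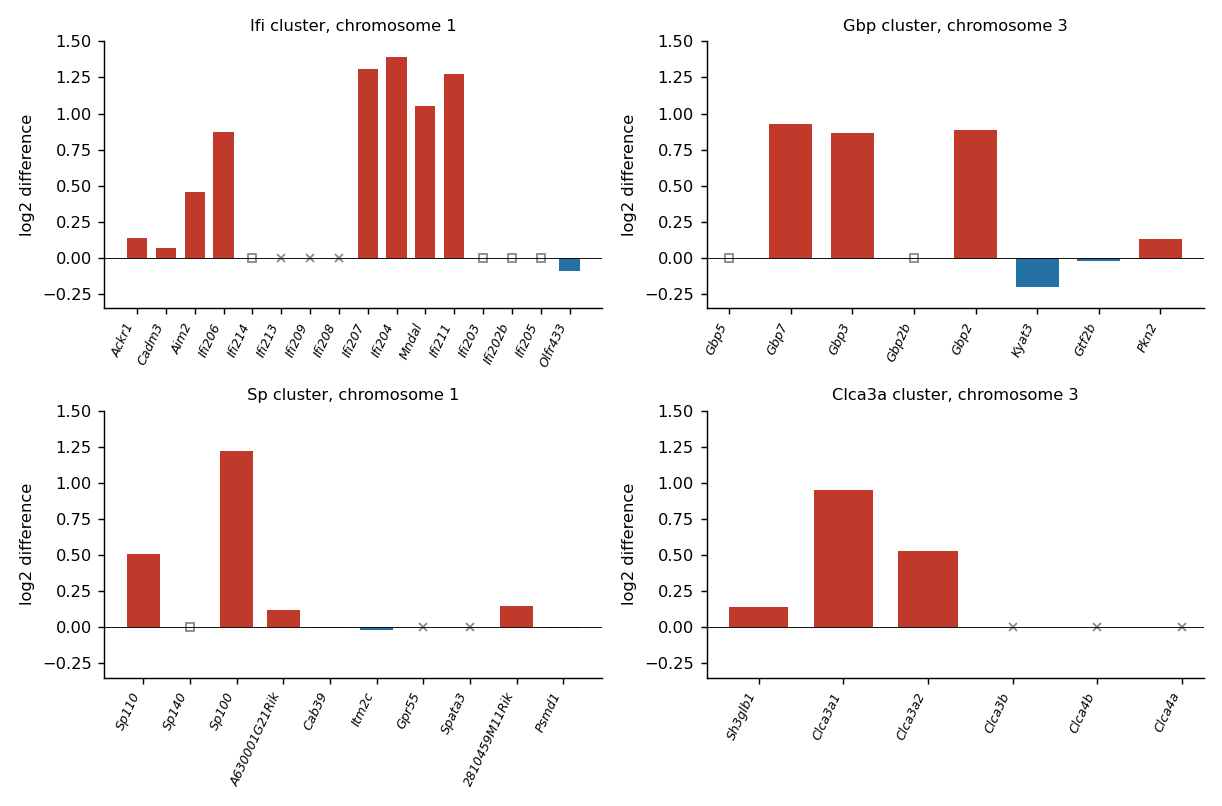
Difference of passage 54 from passages 47 and 56 (bars, log2, from 0) for genes in RefSeq order around 4 clusters. A cross stands for a dim gene and an open square for a gene with no value here. The bars of the Ifi, Gbp, Sp and Clca3a genes reach 0.46 to 1.39, and flanking genes lie between -0.20 and 0.15.

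Clca3a1, a secreted protein of the calcium-activated chloride channel regulator family, was also higher, at 5.61 and 5.48 against 4.53 to 4.64. Its difference was 0.95 with a standard error of 0.059, and its window held the letters GAAANNGAAA. It is on none of the interferon lists. Of 37 genes called as higher outside those lists, 2 (5.41%) held these letters, Clca3a1 and Clca3a2, against 3.72% of all kept genes with a window. Clca3a2, beside it, differed by 0.53 and was chosen after its values were seen.

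Matrix and adhesion genes were higher in part. Of 34 listed 30 were kept, with a median difference of 0.13. Among these, 10 (33.3%) had both passage 54 arrays above the rest and 1 (3.33%) below, where all kept genes had 15.4% and 10.8%, and 5 were called, against 1.29% of all. Thbs1, the matrix glycoprotein thrombospondin 1, was at log2 9.11, 9.90 and 9.14 in siDicer cells and at 8.44, 9.15 and 8.25 in siScr cells, a difference of 0.79. Ccn1, a secreted matricellular protein, differed by 0.69, Tnc, tenascin C, by 0.63, Tns1, which links integrins to actin, by 0.59 and the fibrillar collagen Col3a1 by 0.43. In Thbs1 the lower passage 54 array, at 9.15, lay just above the 9.14 of the siDicer array of passage 56. Npnt, nephronectin, was the lowest of the kept members at -0.26, with overlapping arrays.

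Col3a1 is also a marker of fibroblasts, and others of those markers were higher. Of 9 listed fibroblast genes 7 had a value and 5 were kept, and 4 of these had both passage 54 arrays above the others, against 15.4% of all kept genes. Ddr2, a collagen receptor kinase, differed by 0.75, Twist2 by 0.32 and Dpt by 0.08, while Postn differed by -0.06. The mean log2 signal of the 7 measured genes was 5.42 on both passage 54 arrays and 5.13 to 5.25 on the others. Fap and Prrx1 were dim on average, at 4.06 and 3.91. Keratinocyte markers averaged 4.64 and 4.68 at passage 54 and 4.54 to 4.60 elsewhere, and leukocyte markers 4.49 and 4.53 against 4.43 to 4.52. Whether other cells took part in the interferon or matrix differences was not tested.

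Inflammatory genes were higher in part as well, with a median of 0.11 over 17 kept of 24 listed. Both passage 54 arrays lay above the others in 6 (35.3%, against 15.4% of all kept genes) and below in 1 (5.88%, against 10.8%). Il1r1, the interleukin 1 receptor, was at 6.51 and 6.12 at passage 54 against 5.61 to 5.79, a difference of 0.62. Csf1, the growth factor of macrophages, differed by 0.58 and Vcam1, an adhesion molecule for leukocytes, by 0.55. These 3 were called, against 1.29% of all kept genes, and Ptgs2, the inducible prostaglandin synthase, differed by 0.49 and was not. Cd44 lay below the other arrays at -0.19, and the interleukins Il1a and Il1b were dim.

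Most pigment genes were lower at passage 54, and most were also lower at passage 56 than at 47. For passage 56 minus 47 the median was -0.11 and 10 of 13 were below 0, against 2667 of 5333 kept genes. Of 14 listed 13 had a value and were kept, with a median passage 54 difference of -0.16. In 7 both passage 54 arrays lay below the other 4 (53.8%, against 10.8% of all kept genes). In 2 they lay above (15.4%, the same as the 15.4% of all kept genes). Mcoln3, a cation channel of endosomes and lysosomes, had the largest lower difference. It was at log2 9.78, 8.78 and 9.42 in siDicer cells and at 9.95, 8.88 and 9.68 in siScr cells, and the difference was -0.88 with a standard error of 0.12. Mlph, melanophilin, which ties melanosomes to the actin motor, was at 10.25, 9.70 and 10.08 and at 10.28, 9.64 and 10.23, a difference of -0.54. Mcoln3 and Mlph were the 2 of 13 called, against 1.29% of all kept genes.

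Other pigment genes were lower by less. Slc24a5, an ion exchanger of melanosomes, differed by -0.50 and Hps3, of melanosome biogenesis, by -0.43. Tyrp1 was at 12.68 and 12.77 at passage 54 and at 12.84 to 12.96 elsewhere, which is a difference of -0.16 with a standard error of 0.066. The endothelin-converting enzyme Ece1 was higher by 0.47 and Edn3 by 0.10. A stretch of the Tyrp1 window holds the letters CATGTG, the core of the element that MITF binds, which were in 11.8% of kept genes with a window; it is shown as the pigment counterpart of the stretches given before, with the match in capitals and on the plus strand.

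Tyrp1, chr4:80834147-80834192, plus strand: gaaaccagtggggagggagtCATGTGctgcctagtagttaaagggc

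Among factors of melanocytes the lower gene called was Lef1, a Wnt-responsive transcription factor, at 7.16 and 6.71 against 7.17 to 7.55 elsewhere. The margin of the higher passage 54 array was thus narrow, and the difference was -0.42. Pax3, a master factor of the lineage, differed by -0.20 and Foxd3 by -0.17. These 3 had both passage 54 arrays below the others (23.1%, against 10.8% of all kept genes), and 1 of the 13 was called, against 1.29% of all. The other 10 of the 13 kept members overlapped, and the median of the list was 0.02, which turned to -0.01 after median centring. Atp6v0d2, a proton-pump subunit on the lysosome list, differed by -0.79 and was called although 1 of the other arrays overlaps with passage 54.

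**Figure D4:**
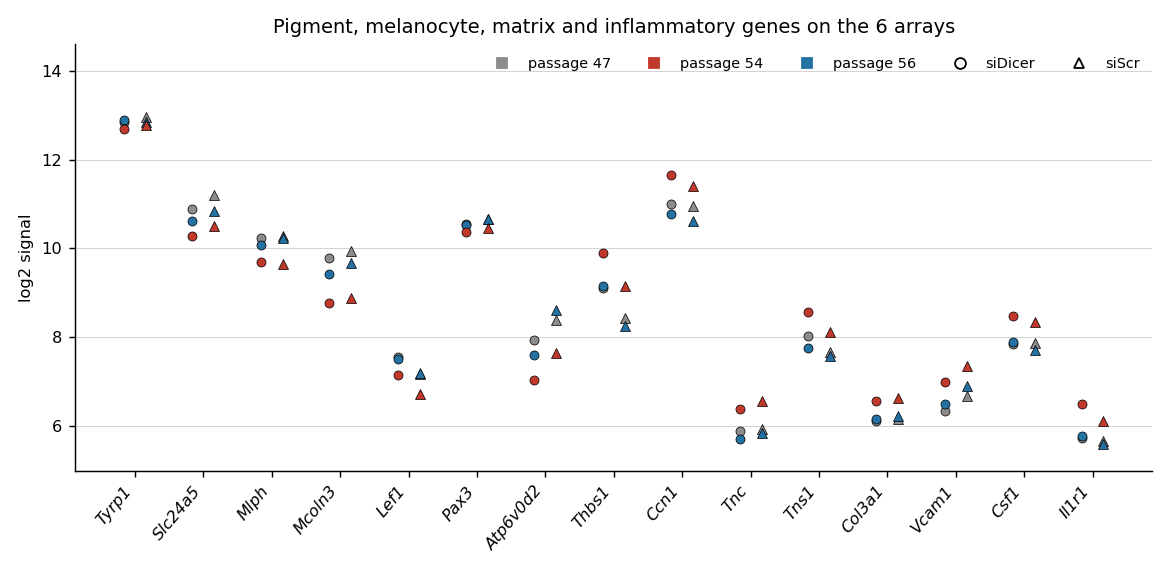
Log2 signal (y) of pigment, melanocyte, matrix and inflammatory genes (x) on the 6 arrays, with colour for the passage and shape for the siRNA. Passage 54 lies at the bottom of each arm for the genes from Tyrp1 to Atp6v0d2 and at the top from Thbs1 to Il1r1.

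Other large lower differences belonged to genes of several functions. Glrb, a subunit of the glycine receptor, differed by -0.63, Nipal3, a magnesium transporter of the NIPA family, by -0.62 and Stpg1 by -0.61. Adam23 (-0.58), the neurotrophic receptor chain Cntfr (-0.52), Sema6d (-0.51), Enho (-0.51), the sodium channel Scn1a (-0.50) and Gstm7 (-0.49) followed. Their arrays of passage 54 lay below all others. Nipal3 was at 9.07 and 9.04 against 9.49 to 9.76.

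Sterol synthesis genes had a median of -0.14 over 6 kept members. Both passage 54 arrays lay below the others in 3 of them (50%, against 10.8% of all kept genes), Insig2 (-0.29), Elovl1 (-0.27) and Fdps (-0.21). They lay above in 1 (16.7%, against 15.4% of all), and 0 were called, against 1.29% of all. Lysosomal genes had a median of -0.07 over 10. The stress response list was at -0.05, the hypoxia list at 0.04, p53 targets at 0.03 and TGF-beta and BMP genes at 0.02. After median centring the last 2 turned to 0 and -0.01. Of these 6 lists the genes called were Btg2, an antiproliferative p53 target, at 0.49, and Atp6v0d2. Each was 1 of the 10 kept on its list, where 1.29% of all kept genes were called. Slc7a11, a cystine transporter that has its highest signal on the siScr array of passage 47 (6.65, against 5.26 to 5.64 elsewhere), differed by -0.21 with overlapping arrays.

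**Figure D5:**
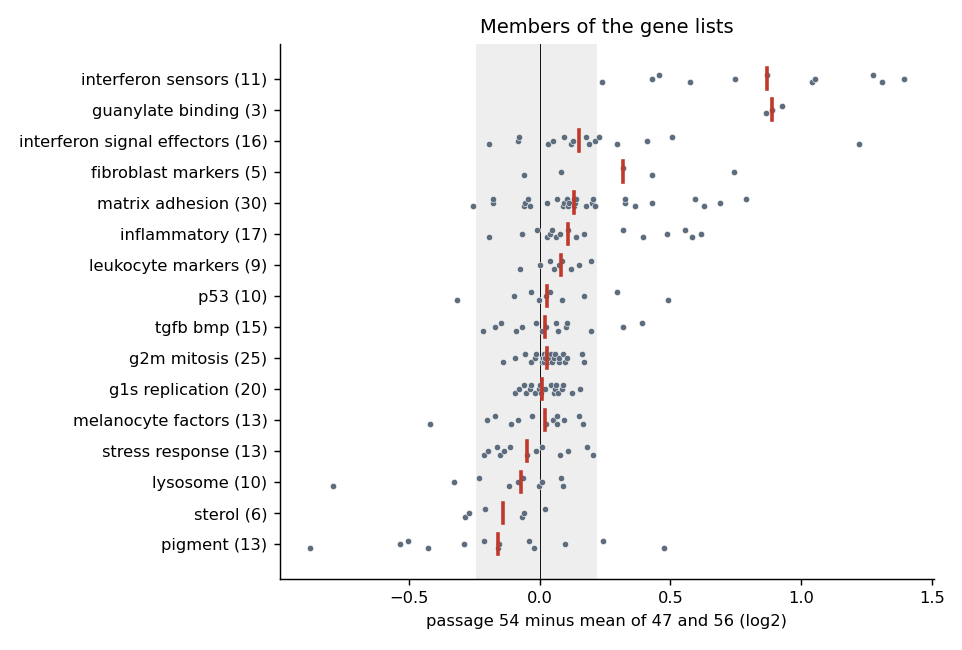
Difference of passage 54 from passages 47 and 56 (x, log2) for kept members of 16 lists (y, with the number kept), and the median of each list as a red bar. The grey band holds the middle 90% of all kept genes. The 11 sensors run from 0.24 to 1.39, and the members of the 2 cell cycle lists run from -0.14 to 0.17.

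Cell cycle genes did not set passage 54 apart. For the 20 kept genes of G1/S and replication the median passage 54 difference was 0.01 and for the 25 of G2/M and mitosis 0.03. After median centring the medians were -0.02 and 0. In 0 genes of either list did both passage 54 arrays lie above or below the others, against 15.4% and 10.8% of all kept genes. Passage 56 was above passage 47 in all 20 and all 25, by medians of 0.33 and 0.34, against 2639 of 5333 genes above and a median of -0.001 over all. Mean log2 signals of the G2/M list at passages 47, 54 and 56 were 7.93, 8.02 and 8.25 in siDicer cells and 7.81, 8.12 and 8.17 in siScr cells. Passage 54 therefore stood between the others in both arms. For passage 56 against 47 the model called 0 genes of either list, against 0.0750% of all kept genes.

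Over all genes the contrast of passage 56 against 47, which the choice did not use, called 4 genes (0.0750%, limma, adjusted p under 0.05), with 425 under 0.05 before adjustment. Each of these passages has 1 siDicer and 1 siScr array of 1 culture passage. The p-values and standard errors therefore measure how well the siRNA arms agree, and not the spread between separate cultures. Eng, endoglin, an accessory receptor for TGF-beta family ligands, fell by 1.45 with a standard error of 0.098 (adjusted p = 0.00502), from 8.80 to 7.18 in siDicer cells and from 8.30 to 7.02 in siScr cells. Passage 54 was at 7.42 and 7.20, close to 56. Ifi207 rose by 1.22 (adjusted p = 0.00682), Itga4, an integrin subunit, rose by 0.90 (adjusted p = 0.023) and Fmod, fibromodulin, fell by 0.70 (adjusted p = 0.0455). Without the siScr array of passage 56 the count was 42, and without the siDicer array of passage 47 it was 0. It was 2 without the siDicer array of passage 56, 10 with a stricter filter on dim genes, 15 after median centring and 0 with no siRNA block.

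Part of the interferon genes had higher values at passage 56 than at 47. The 11 kept sensors were all higher at passage 56 than at 47, by 0.02 to 1.22 and a median of 0.38. Ifi207 was the 1 called, against 0.0750% of all kept genes. The Ifi200 genes among the 11 are close copies, so these are not 11 separate observations. Over all kept genes 2639 of 5333 were higher at passage 56. The 11 include Ifi206 (0.38), which passed the filter on dim genes only through passage 54. The 3 Gbp genes were higher at passage 56 by 0.06 to 0.18, and 0 were called. Ifi204 was higher by 0.71 (adjusted p = 0.0930). The 16 genes of signalling and effectors had a median of 0.04, with 11 above and 5 below. In 14 of the 30 kept members of the interferon lists passage 54 was above 56 and 56 above 47 in both arms. The share over all kept genes was not counted, and the lists were chosen with the passage 54 values known. This count is therefore a description only.

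The passage 54 difference was tested for an interaction with siRNA. In this test 0 genes were called (0%, limma, adjusted p under 0.05), and 119 were under 0.05 before adjustment. Passage 54 has 1 array in each siRNA arm, and the arrays of the other passages are pooled within each arm. Few degrees of freedom are left, and the error includes the gap between those other passages. The test is therefore weaker in genes in which the other passages differ, and the count of 0 does not show that the arms agree. In simulated data the test recovered 44 of 100 genes with a log2 interaction of 1 and 1 of 100 with 0.5, so moderate differences between the arms would be missed. The median interaction (siDicer minus siScr) was 0.09 for the sensors and 0.34 for the Gbp genes, and Gbp2 was higher at passage 54 by 1.08 in siDicer and by 0.69 in siScr cells.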

How the data were processed

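Each array's file column holds log2 signals, one per transcript cluster, as deposited by the authors. The submitters' processing notes name Affymetrix Expression Console with no version; the normalisation is not given in the sources used here, nor is the build. The log2 scale was read from the values (1.70 to 13.70). Precision is limited by 6 arrays, and scanner files were not used.

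Of the clusters, 7671 had 1 gene symbol, 314 several and 8398 none; 325 symbols were updated through RefSeq. For 52 genes with several clusters the brightest by mean was used. Genes under the 30th percentile of mean signal were left out. Models used limma 3.58.1 in R 4.3.3 (lmFit, eBayes with a trend, Benjamini-Hochberg at 0.05, siRNA as a block), checked on simulated data. The passage 54 contrast, its members, the gene lists and the named genes were chosen with earlier results of these data known. Named were the markers, the 12 largest higher and 12 largest lower differences without overlap (no small RNA, pseudogene, predicted or odorant genes), kept interferon list members, up to 4 of each other list, and the smallest p-values of the tested contrasts. Others named, among them neighbours of clusters, list members beyond the 4 and dim genes, were chosen after their values were seen. Settings tried as alternatives are given in the closing section.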

Additional observations from a re-analysis of the deposited data

How the results depend on the processing

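Of the 30 kept interferon members 27 had the same sign in the 15 alternatives, which reuse the arrays the contrast was chosen on and so do not bear on stability; Znfx1, Mov10 and Fcgr1, with differences of 0.09, 0.03 and 0.05, did not. The number called for passage 54 (69) was 288 with array weights, 41 with no siRNA block, 30 without passage 47 and 390 without passage 56, and 0 to 221 with 1 array left out. The number for passage 56 against 47 (4) was 10 with the dim filter at the 50th percentile, 15 after median centring and 0 with no siRNA block, and 0 to 42 with 1 array left out. Genes with non-overlapping arrays (1397) were 2230 without passage 47 and 2529 without passage 56, and 1645 to 2913 with 1 array left out, which by construction leaves fewer arrays to overlap. The interaction called 0 genes in each setting in which it could be fitted; it could not be fitted without an array of passage 54 or with a passage left out. The causes of the other changes were not tested. Replicate numbers equal passages, so no paired analysis was possible because a block by replicate number would remove the comparison.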

Other observations

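Of 126 kept genes that RefSeq types as small nuclear RNA, components or relatives of spliceosomal RNAs, 59 (46.8%, against 10.8% of all kept genes) had both passage 54 arrays below the other 4 and 3 (2.38%, against 15.4%) above. The median difference was -0.19, and 1 of the 126 was called, against 1.29% of all kept genes. Their mean log2 signal was 7.64 and 7.51 at passage 54 and 7.68 to 7.79 elsewhere. Most are near-identical copies, so their probes share sequence and these counts are not counts of separate genes. The median stayed below 0 in all the settings tried, which reuse the arrays the contrast was chosen on and so do not bear on stability. Small nucleolar RNA genes had a median of -0.05 over 113. Of 133 microRNA genes 22 lay above, or 16.5%, which is near the 15.4% of all kept genes, and 0 lay below, against 10.8% of all. The median was 0.08, and it was about 0 in siDicer cells and 0.15 in siScr cells.

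Of 6 kept replication-dependent histone genes 4 lay below without overlap (66.7%, against 10.8% of all kept genes), with a median of -0.31. Of the 6, 1 was called, against 1.29% of all kept genes. That gene, H2ac21, differed by -0.49, H2ac18 by -0.33, H2bc21 by -0.33 and H2ac19 by -0.30, named after their values were seen. Near copies make the separate values uncertain. The G1/S list, for comparison, had a median of 0.01.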
